A study of Mus musculus with 2 samples.

Results

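The genes described here are 10 genes of cholesterol synthesis and sterol control in mouse CD8+ T cells: Hmgcs1, Mvd, Fdps, Fdft1, Lss, Cyp51, Hsd17b7, Dhcr7, Insig1 and Stard4. They were chosen by name, as the probe sets whose platform gene symbol was exactly one of these, and make up 10 of the 22180 genes with a value on the arrays. Naive CD8+ T cells had been activated with beads carrying antibodies to CD3, a component of the antigen receptor, and to CD28, which supplies costimulation, in recombinant human interleukin-2 at 100 U/mL. The bezafibrate culture had 30 µM bezafibrate, a drug that lowers blood lipids by acting on peroxisome proliferator-activated receptors (PPARs), for the whole culture period. The control culture had its solvent, dimethyl sulfoxide (DMSO), and was activated and expanded in the same way. The series describes expansion to day 13, and the labels give no genotype, strain, sex or age of the mice. Each group is 1 array, so there is no replicate spread for any difference below, no test was possible, and each difference compares 2 arrays. In RNA of a whole culture, fewer cells of a type and less RNA per cell cannot be told apart.

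Cells build cholesterol from acetyl units through mevalonate, farnesyl diphosphate, squalene and lanosterol, and the same early steps supply isoprenoids for protein prenylation, dolichol and ubiquinone. The transcription factor SREBP2 is held in the endoplasmic reticulum by SCAP and the INSIG proteins while sterols are plentiful, and when sterols are scarce it is cleaved and switches on most genes of the pathway together. Activated T cells are known to raise this pathway when they grow and divide.

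Values are log2 signals, and a difference is always bezafibrate minus DMSO on that scale. The floor for a gene was the median of all named genes on whichever array read that gene brighter, which was 4.85 on the bezafibrate array and 4.88 on the DMSO array, and 11446 genes lay above it. All 10 genes lay above the floor on both arrays, between 7.07 and 10.01 with bezafibrate and between 7.22 and 9.88 with DMSO. Each was read by 1 probe set that names no other gene. A level in one gene is not set against that in another, since probe sets differ in how brightly they read.

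The 10 genes did not move together. With bezafibrate 6 read higher and 4 lower, where 48.4% of all genes above the floor read higher by any amount and 49.6% lower. The differences ran from -0.35 for Mvd to 0.32 for Stard4. Their median was 0.07 and their mean 0.02, where the median of all genes above the floor was 0. None reached 1.5-fold in either direction, a limit that 0.664% of genes above the floor passed as higher and 0.524% as lower. At 1.2-fold, 1 of the 10 was higher (Stard4) and 1 was lower (Mvd), against 9.58% and 10.4% of genes above the floor, so the share of the 10 is near the background. The differences of the 10 genes had an SD of 0.21 over the genes, and the SD over all genes above the floor was 0.22.

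**Figure D1:**
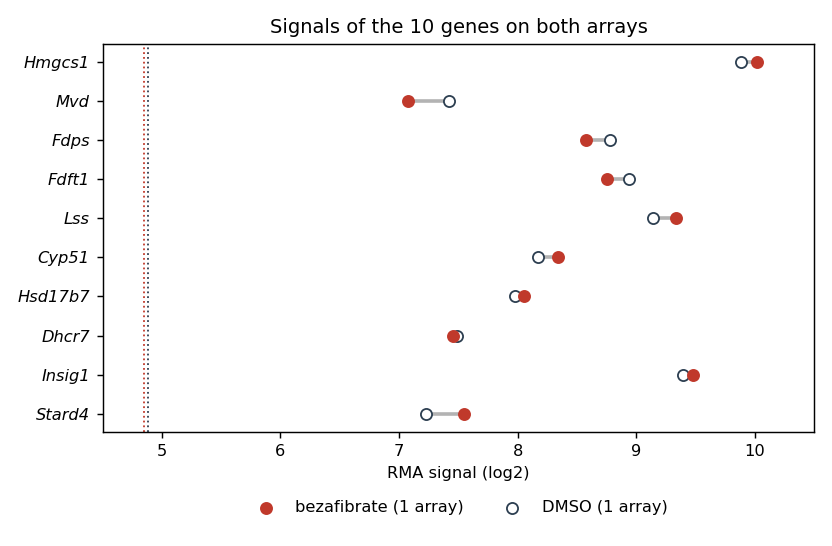
RMA signal (log2) of each of the 10 genes on the bezafibrate array (filled circles) and the DMSO array (open circles), with dotted lines at the floors of 4.85 and 4.88. Each symbol is 1 array and there are no error bars; Mvd and Stard4 have the widest gaps, in opposite directions.

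Promoters of 3 genes are shown because they share the boxes common to sterol-regulated promoters while their transcripts differed in direction. Mvd was the lowest of the 10 and Lss the second highest. Among the 7 genes whose promoters were searched, Hmgcs1 was the only 1 to hold the exact letters TCACNCCAC, where N is any base. Other forms of the sterol element were not searched for. Each promoter shown runs 5′ to 3′ on the gene's strand from 250 bases before to 50 bases after the RefSeq start, on build GRCm38.p6. The windows are chr8:122443373-122443672 on the minus strand for Mvd, chr10:76531355-76531654 on the plus strand for Lss and chr13:119690101-119690400 on the plus strand for Hmgcs1. Capitals mark TCACNCCAC, a core of the sterol regulatory element that SREBPs bind, CCAAT, the box of NF-Y, and GGGCGG, the box of Sp1, on either strand.
Mvd: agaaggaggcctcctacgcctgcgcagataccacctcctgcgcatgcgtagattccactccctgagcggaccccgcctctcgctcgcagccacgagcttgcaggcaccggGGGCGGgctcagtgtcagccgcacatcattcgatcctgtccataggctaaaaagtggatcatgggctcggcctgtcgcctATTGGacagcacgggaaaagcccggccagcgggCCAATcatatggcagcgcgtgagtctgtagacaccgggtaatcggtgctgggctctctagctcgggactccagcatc
Lss: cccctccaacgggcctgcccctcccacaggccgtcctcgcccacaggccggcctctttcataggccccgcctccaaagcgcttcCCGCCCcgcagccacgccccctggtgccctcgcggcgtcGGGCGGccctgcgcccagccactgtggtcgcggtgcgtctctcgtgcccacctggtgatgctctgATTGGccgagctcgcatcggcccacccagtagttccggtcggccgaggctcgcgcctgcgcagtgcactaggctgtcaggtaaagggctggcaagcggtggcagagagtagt
Hmgcs1: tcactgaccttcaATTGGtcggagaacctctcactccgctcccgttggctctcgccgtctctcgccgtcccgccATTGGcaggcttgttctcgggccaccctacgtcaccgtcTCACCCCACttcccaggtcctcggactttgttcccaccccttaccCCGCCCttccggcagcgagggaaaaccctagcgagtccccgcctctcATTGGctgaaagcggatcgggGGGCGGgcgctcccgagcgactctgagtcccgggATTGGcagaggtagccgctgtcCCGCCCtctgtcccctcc
NF-Y and Sp1 are factors known to act beside SREBPs at such promoters. The search covered 9 promoters of 7 of the 10 genes. Fdps and Fdft1 had no promoter among the sequences used. Stard4 was left out with all promoters of its chromosome, which the count over all promoters keeps. The element TCACNCCAC was in 1 of the 9, at positions -137 to -129 of Hmgcs1 as TCACCCCAC, where 1.24% of all 32851 promoters of the same length hold it. CCAAT was in 7 of the 9, including at least 1 promoter of each of the 7 genes, against 37.4% of all promoters. GGGCGG was in 8 of the 9, again with at least 1 for each gene, against 35.7%. No 2 of these motifs overlapped in the windows shown. The matches are letters in a window and do not show that a factor binds there.

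In the first stretch of the pathway, up to farnesyl diphosphate, Hmgcs1 was higher with bezafibrate, and Mvd and Fdps, which act later, were lower. Hmgcs1 (probe set 17290173), the cytosolic synthase that joins acetyl-CoA and acetoacetyl-CoA to HMG-CoA, had a signal of 10.01 on the bezafibrate array and 9.88 on the DMSO array. Its difference of 0.13 was matched or exceeded by 21.5% of the 405 genes above the floor whose mean level lay within 0.5 of its own. Mvd (probe set 17513681), the decarboxylase that makes isopentenyl diphosphate, had 7.07 with bezafibrate and 7.42 with DMSO. That is 1.27-fold lower, and only 2.9% of the 2486 genes of like level were as low or lower. Fdps (probe set 17406908), which makes farnesyl diphosphate and is the target of nitrogen bisphosphonate drugs, had 8.57 with bezafibrate and 8.78 with DMSO. It was 1.15-fold lower, as far down as 12.4% of genes of like level.

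Of the enzymes that turn farnesyl diphosphate into lanosterol, Fdft1 read lower with bezafibrate and Lss higher. Fdft1 (probe set 17307588), squalene synthase, commits the intermediate to sterols and had 8.75 with bezafibrate and 8.94 with DMSO. It was 1.14-fold lower, next to Fdps in both position and direction, and 14.2% of genes of like level were as low or lower. Lss (probe set 17234552), which closes the rings to give lanosterol, had 9.33 with bezafibrate and 9.14 with DMSO. It was 1.15-fold higher, and 12.6% of genes of like level were as high or higher. The differences of Fdft1 and Lss lay on opposite sides of 0, each within the central 95% of the differences of genes of like level.

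Of the enzymes that convert lanosterol to cholesterol, 3 belong to the set. Cyp51 (probe set 17445308), the lanosterol 14-demethylase, had 8.34 with bezafibrate and 8.17 with DMSO, 1.12-fold higher. Hsd17b7 (probe set 17229466), a ketosteroid reductase that acts in demethylation at the fourth carbon, had 8.05 with bezafibrate and 7.98 with DMSO. Dhcr7 (probe set 17485357), which makes cholesterol from 7-dehydrocholesterol in the last step, had 7.46 with bezafibrate and 7.49 with DMSO. Hsd17b7 and Dhcr7 differed by 0.07 and -0.03, and 40.7% of the genes of like level were at least as far out in the same direction for each.

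The remaining 2 genes are SREBP2 targets that are not enzymes. Insig1 (probe set 17435584), the sterol-dependent anchor that holds SCAP in the endoplasmic reticulum, had 9.47 with bezafibrate and 9.39 with DMSO, a difference of 0.08. Stard4 (probe set 17353358), a soluble carrier of cholesterol between membranes, had 7.55 with bezafibrate and 7.22 with DMSO. It was 1.25-fold higher, the most of the 10, and 5.71% of the 2468 genes of like level were as high or higher. None of the 10 genes lay outside the central 95% of the differences of genes of like level, whose SD was between 0.18 and 0.21.

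**Figure D2:**
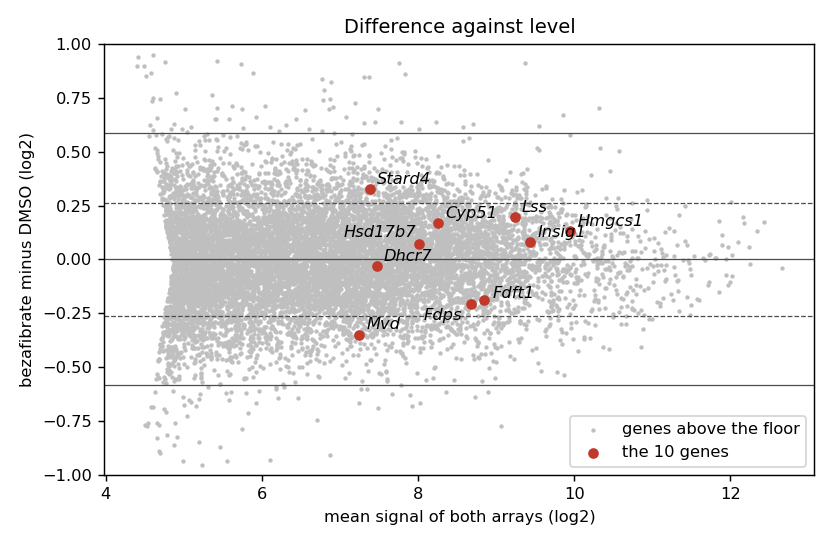
Difference of bezafibrate minus DMSO (log2) against the mean signal of both arrays (log2) for genes above the floor (grey, the 10 genes with differences of at least 1 not drawn) and for the 10 genes named (red). Dashed lines mark 1.2-fold and solid lines 1.5-fold; Stard4 and Mvd lie just beyond the dashed lines and the other 8 inside them.

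The other enzymes of the pathway read mostly lower with bezafibrate. Both of the 2 others analysed up to farnesyl diphosphate were lower, and of the 7 after it 2 were higher and 5 lower. Of the 17 enzymes analysed in pathway order, 8 of them in the set, 6 were higher and 11 lower with bezafibrate. Their median was -0.04, and 49.6% of genes above the floor were lower. Of the 5 enzymes with a probe set of their own up to farnesyl diphosphate, 4 were lower, with a median of -0.20; this stretch is incomplete, since 3 of the 5 other enzymes listed for it were not analysed in this count. Mvk, mevalonate kinase, had 6.65 with bezafibrate and 6.85 with DMSO, and Pmvk, the kinase that follows it, 6.98 with bezafibrate and 7.01 with DMSO. The correction for level and length given below put Pmvk above 0, at 0.02. It left Hmgcs1 at 0.14, Fdps at -0.07, Mvk at -0.19 and Mvd at -0.31. Sqle, the epoxidase that follows Fdft1 and limits the flow into sterols, had 8.52 with bezafibrate and 8.43 with DMSO, on the same side as Lss. Idi1, the isopentenyl diphosphate isomerase, shared its probe set with Gm13502 and had 8.04 with bezafibrate and 8.10 with DMSO.

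After lanosterol, 3 of 9 enzymes were higher and 6 lower. Tm7sf2 and Lbr both reduce the bond at the fourteenth carbon, and they differed by 0.29 and -0.04. Msmo1, the methyl oxidase that follows, had 7.62 with bezafibrate and 7.87 with DMSO, and its partner Nsdhl had 8.02 with bezafibrate and 8.09 with DMSO. Ebp, the sterol isomerase, had 8.14 with bezafibrate and 8.37 with DMSO, and Sc5d, the desaturase before Dhcr7, had 9.13 with bezafibrate and 9.19 with DMSO. Tm7sf2 and Mvd were the only enzymes of the 17 past 1.2-fold.

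**Figure D3:**
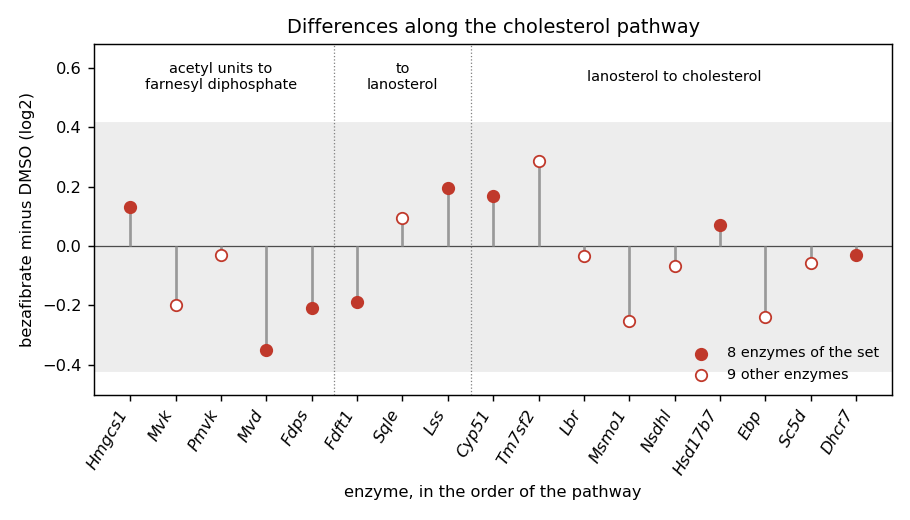
Difference of bezafibrate minus DMSO (log2, 1 array a group) for the 17 enzymes in the order of the pathway, with filled symbols for the 8 that belong to the set and open symbols for the 9 others. The grey band holds the central 95% of genes above the floor, from -0.42 to 0.41, and all 17 enzymes lie inside it.

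Other SREBP2 targets read mostly lower with bezafibrate. The 10 that were analysed, of 16 listed, comprise 7 of the enzymes above with Srebf2, Acss2 and Tmem97. Sqle was higher and 9 were lower, with a median of -0.07, where 49.6% of genes above the floor were lower. Of the 10, 0 reached 1.2-fold in either direction. After the correction for level and length given below, Sc5d and Pmvk also lay above 0, both at 0.02, and the list's median was -0.11. Tmem97, a sterol-responsive membrane protein, had 7.84 with bezafibrate and 8.01 with DMSO. The other 6 listed were not analysed here, and the listed targets that were measured share the 2 arrays with the 10 genes, so no test of the contrast was made.

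Transcripts of the control machinery differed by at most 0.13 in size on the probe set that stood for each gene, apart from Mbtps2. Srebf2, which encodes SREBP2, had 9.28 with bezafibrate and 9.29 with DMSO, and Srebf1, which encodes SREBP1, had 7.42 with bezafibrate and 7.40 with DMSO. Scap, the escort of SREBPs to the Golgi, had 8.40 with bezafibrate and 8.48 with DMSO. Insig2, the homologue of Insig1, had 5.61 with bezafibrate and 5.48 with DMSO, a difference of 0.13. Mbtps2, the site 2 protease that releases SREBPs from the membrane, had 6.67 with bezafibrate and 6.20 with DMSO, a difference of 0.46, while a probe set that names it together with Yy2 had a difference of 0.08. Of the 7 analysed genes of this list, 5 were higher and 2 lower, with a median of 0.04. The arrays read transcripts and not the cleavage of SREBPs.

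The branches that leave the pathway at farnesyl diphosphate were also split. Of 13 enzymes of prenylation, dolichol and ubiquinone synthesis, 7 were higher and 6 lower, with a median of 0.02. Pggt1b, a subunit of an enzyme that prenylates small GTPases, differed by 0.41 and Coq2, of ubiquinone synthesis, by 0.31. Fntb, the farnesyltransferase subunit, differed by -0.21 and Rce1, the protease that trims prenylated proteins, by -0.20. Of 12 genes of sterol uptake and transport, 5 were higher, 6 lower and 1 equal, with a median of -0.02. Gramd1c and Gramd1b, which encode sterol transfer proteins like Stard4, differed by 0.31 and 0.13, while their relative Gramd1a and the lysosomal lipase gene Lipa differed by -0.24 and -0.22.

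Of the genes that answer to sterol excess, the analysed ones of the LXR list were close to level where above the floor. LXR receptors, which sense oxysterols, and their targets had a median of 0.02 over 7 genes, and the 6 above the floor ran from -0.02 to 0.09. Abca1 lay below the floor with a difference of 0.16, and Nr1h2 and Arl4c of this list were not analysed. Mylip, which marks lipoprotein receptors for degradation, and Abcg1, a sterol exporter, had the highest differences of the 6 above the floor at 0.09 and 0.03. Of the 5 analysed genes of esterification and oxysterol synthesis, 3 lay within background on both arrays, that is under the 95th percentile of the odour and pheromone receptor genes, taken as silent in T cells (4.68 with bezafibrate and 4.71 with DMSO), and the list's median of 0.05 and mean of -0.06 differ in sign. Sult2b1, a sterol sulfotransferase, had 5.66 with bezafibrate and 6.19 with DMSO, a difference of -0.52. In the SREBP1 list of fatty acid synthesis, 5 of the 7 genes above the floor were higher, with a median of 0.08 over these 7 and of 0.20 over all 9 analysed. Acaca, acetyl-CoA carboxylase, and Fads2, a desaturase, were the highest of them at 0.46 and 0.40, against 0.32 for Stard4. After the correction for level and length given below, Acaca had 0.33 and Fads2 0.35, against 0.36 for Stard4, and the list's median was 0.09 over the 7 genes above the floor, which are the ones it covers.

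**Figure D4:**
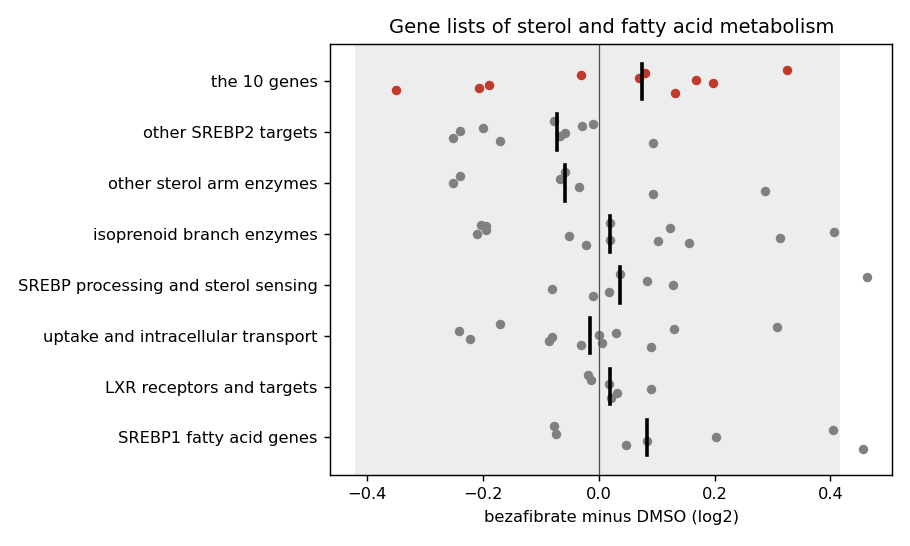
Differences of bezafibrate minus DMSO (log2, 1 array a group) of the genes above the floor in 8 gene lists, with a black bar at each list's median and a grey band for the central 95% of genes above the floor. The 10 genes (red) spread from -0.35 to 0.32 around a median of 0.07, and the medians of the other lists shown lie between -0.07 and 0.08.

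Gene length moved with the differences across the arrays. Over the 11430 genes above the floor with a known length, Spearman's rho of difference and length was 0.28, across genes, which are not independent replicates. The median difference was -0.08 among the shortest 1143 of these genes and 0.09 among the longest 1143. Among the 10 genes, Insig1 at 7251 bp, Fdps at 8380 bp and Mvd at 9827 bp are the shortest and Fdft1 at 36538 bp the longest. After subtraction of the median difference of genes similar in level and length, Fdps had -0.07 in place of -0.21, Mvd had -0.31, Fdft1 -0.22, Insig1 0.15 and Stard4 0.36. Still 6 of the 10 were above 0 and 4 below, with a median of 0.12.

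**Figure D5:**
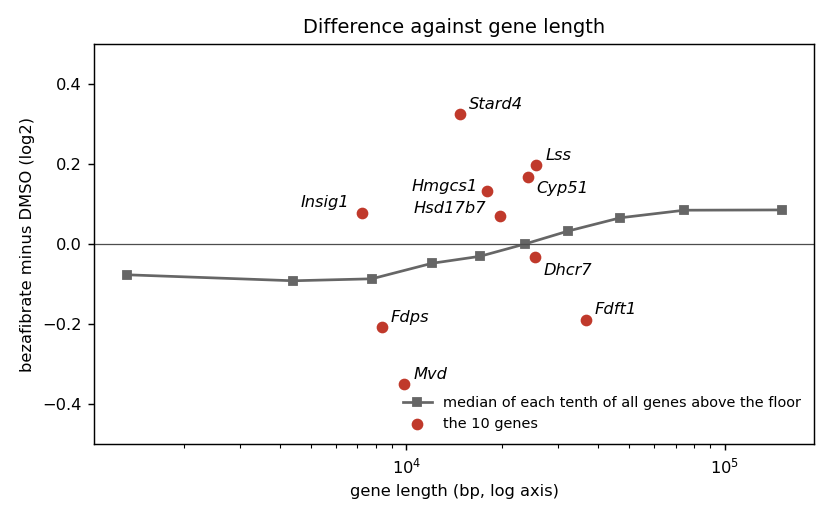
Difference of bezafibrate minus DMSO (log2) against gene length (bp, log axis) for the 10 genes (red), with squares for the median of each of 10 equal classes of all genes above the floor by length. The medians run between -0.09 and 0.09; Mvd and Fdps sit among the shorter of the 10 genes, and Fdft1, also lower, is the longest.

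The cells read as CD8+ T cells on both arrays. Cd8a had 10.68 with bezafibrate and 10.82 with DMSO, and all 10 analysed T cell and CD8 T cell markers were above the floor. All 5 T cell markers were lower with bezafibrate, where 49.6% of genes above the floor were lower. Their median was -0.18 and the lowest value, -0.30, was in Cd3d. After the correction for level and length, Cd3e lay above 0 at 0.02. Cd3d at -0.15, Cd3g at -0.11, Cd2 at -0.07 and Cd5 at -0.18 stayed below 0. Of the 5 CD8 T cell markers 2 were higher and 3 lower, their median was -0.07, and Cd8b1 was lowest at -0.23. The 4 CD4 T cell markers, 2 of them above the floor, were all higher with bezafibrate, with a median of 0.17. Of all genes above the floor 48.4% were higher. These shifts are of the size of those of the 10 genes. Cd4 itself lay within background on both arrays, while Zbtb7b had 5.48 with bezafibrate and 5.22 with DMSO and Foxp3 5.02 with bezafibrate and 4.95 with DMSO, both above the floor. The macrophage marker Cd68 was also above the floor, with 6.92 with bezafibrate and 6.91 with DMSO. The 5 analysed B cell markers summed to a linear signal of 495 with bezafibrate and 617 with DMSO. Ighm carried most of that sum, with log2 signals of 8.72 with bezafibrate and 9.05 with DMSO. Cd79b was also above the floor, and 3 of 5 were within background. The 6 dendritic cell markers summed to 473 with bezafibrate and 618 with DMSO, with Cd209a above the floor and 4 of 6 within background. Within background on both arrays were 2 of 4 CD4 T cell, 3 of 5 natural killer cell, 4 of 6 macrophage, 5 of 5 neutrophil and 0 of 2 red cell markers, and the Fc receptor chain gene Fcer1g, counted with natural killer cells, had 5.64 with bezafibrate and 6.57 with DMSO. Proliferation genes divided into 5 higher and 6 lower, and had a median of -0.01 and a mean of 0.01, and the median was 0.10 after the correction for level and length. The part of these signals in the differences above was not tested.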

How the data were processed

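Total RNA of 2 cultures, 100 ng each, was amplified with a whole-transcript kit for Affymetrix arrays, 1 array a group, per the labels' protocols. The authors deposited log2 signals per probe set, for which RMA and Affymetrix Expression Console are named in the submitters' processing notes, with no version or build. The log2 scale was inferred from their range (0.79 to 12.64 with bezafibrate and 0.75 to 12.68 with DMSO). RMA equalises the distributions of arrays processed together, so a shift common to most genes would not be seen, and it can shrink true differences of dim genes. Measured differences still spread more among dim genes here. Their SD was 0.34 over the odour and pheromone receptor genes and 0.22 over genes above the floor. The number of arrays limits the precision.

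Of 33793 probe sets with values, 23521 name 1 gene in the platform annotation, and the brightest of these stood for each of 22180 genes. Fold limits were 1.5-fold and 1.2-fold, without a test. Genes of like level had a mean signal within 0.5 of the gene's. Alternatives were quantile normalization, a lowess curve on level, housekeeping centring, other choices of probe set, floor and limit, and, chosen after seeing the data, subtraction of the median of genes in the same of 10 classes of level and 10 of length (RefSeq, GRCm38.p6). Promoters came from RefSeq, build GRCm38.p6. The text names the 10 genes, all analysed enzymes of the pathway, Srebf1 and Srebf2, and up to 2 genes with the highest and 2 with the lowest difference above the floor in each other list; Acss2, Tmem97, Scap, Idi1, Cd8a and the markers named were added to describe their lists. Members and lists were chosen with earlier results of these data known. Calculations used Python 3.11.15, numpy 2.4.6, pandas 2.3.3, statsmodels 0.14.6 and matplotlib 3.10.9 and were tested on simulated data.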

Additional observations from a re-analysis of the deposited data

How the results depend on the processing

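Over 7 alternatives each, 0 of the 10 genes changed sign. Each of the 10 has 1 probe set, so the alternatives that choose or average probe sets could not change its value. Housekeeping centring subtracted the same small median, -0.001, from every gene. The difference of Fdps moved by over 0.1, to -0.07 after subtraction of the median of genes similar in level and length, an alternative chosen after seeing the data, and the other 9 genes moved less. The median of the 10 genes ran from 0.02 (the mean in its place) to 0.12 (with level and length subtracted), and that of the 17 enzymes from -0.06 to -0.03. The same subtraction moved the medians of the proliferation list, from -0.01 to 0.10, and of the SREBP1 list, from 0.20 over 9 genes to 0.09 over the 7 above the floor. The esterification list, with a median of 0.05 over 5 genes, had -0.20 over its 2 genes above the floor and -0.24 after the subtraction. The counts of 76 genes at least 1.5-fold higher and 60 lower depended on the floor and the limit. With no floor they were 285 and 276, above a floor raised to the 75th percentile 32 and 14, at 1.2-fold 1097 and 1187, and at 2-fold 10 and 0. No paired analysis was possible because each group is 1 array. For the same reason no replicate could be left out, and no difference here has an estimate of its error.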
